A study of Mus musculus with 12 samples.

Results

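The genes described here encode the machinery that condenses, attaches, separates and divides replicated chromosomes: 53 kinetochore, condensin and cytokinesis genes out of 18193 genes with a probe set of their own. They were named as a list, and each is represented by the probe set that the platform annotation gives to that gene alone and that has the highest mean log2 signal over the 12 arrays. The naming of the genes uses no measured value, but the list was drawn up with earlier results of these data known. The choice of probe set does use the measured signals, those of the treated arrays included. Of the 53, 47 passed a filter on dim probe sets (signal over the median of its array in at least 2 of 12) and were tested. Bub1, Bub1b, Cenph, Cenpi, Cenpp and Melk did not pass. Among the 47, 14 were above the median on no day 0 array and so passed through the treated groups.

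Liver RNA was taken from female YAP fl/fl mice aged 8 to 12 weeks, which carry floxed Yap1, the gene of the transcriptional co-activator that Hippo signalling restrains. Those called KO received AAV8.TBG.PI.Cre.rBG, a virus that expresses Cre from the hepatocyte promoter TBG, and those called WT received AAV8.TBG.PI.eGFP.WPRE.bGH8, so WT livers are floxed and virus-treated as well and the other liver cells keep Yap1 in both. TCPOBOP, which activates the receptor CAR and makes hepatocytes divide, was given once by gavage at 3 mg/kg in corn oil, 10 days after the virus. Day 0 mice received the virus alone, so the drug, the gavage and the time since the virus cannot be told apart. Each genotype had 2 arrays at day 0, 1 array labelled as pooled at day 1 and 3 arrays at day 2. The labels do not say whether replicates are separate animals, so p-values measure only the spread between these arrays. The number of arrays limits the precision.

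Before mitosis, condensin and topoisomerase II compact and untangle the replicated chromatids. Kinetochores built on the centromere then bind spindle microtubules, the spindle checkpoint delays separation until all are bound, and the central spindle directs the contractile ring that divides the cell. Most hepatocytes of an adult liver do not divide, and transcripts of these genes are scarce there until a mitogen or a loss of tissue calls for growth. Many of these genes share promoter elements, the CHR (TTTGAA) and the CCAAT box, through which the DREAM and MuvB complexes and NF-Y act.

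The RefSeq table of promoter windows (GRCm38.p6, from 250 bases before to 50 after the annotated start) held 44 of the 53 genes. Either strand of the CHR letters TTTGAA occurred in 28 of these 44 (63.6%), against 15.2% of the 11293 tested genes in the table and 20.2% of all its genes. CCAAT on either strand occurred in 32 of 44 (72.7%), against 41.9% of the tested genes. TTTGAA on the gene's own strand within 100 bases before to 50 after the start was found in 18 of 44 (40.9%), against 3.49% of tested genes. CATTCC, the letters of the TEAD motif to which YAP is recruited, occurred in 6 of 44 (13.6%), close to the 15% of tested genes. A match describes letters in these windows and shows no binding. Members called higher in WT liver held the CHR letters in 16 of 21 windows and the other members in 12 of 23, a difference that was not tested. For CATTCC these counts were 4 of 21 and 2 of 23, also not tested. Letters of E2F motifs (TTTGGCGC, TTTCCCGC or TTTCGCGC) occurred in 2 of the 44 (4.55%), against 3.51% of tested genes. The stretches below belong to the 6 members with the largest called rises in WT liver among those whose window holds TTTGAA or its reverse TTCAAA, and they show how the elements are placed. Each runs 5′ to 3′ on the gene's strand from 200 bases before the start, with TTTGAA and its reverse TTCAAA in capitals, and likewise CCAAT and its reverse ATTGG, which overlap once in Ube2c.
Smc2, chr4:52439021-52439220, plus strand: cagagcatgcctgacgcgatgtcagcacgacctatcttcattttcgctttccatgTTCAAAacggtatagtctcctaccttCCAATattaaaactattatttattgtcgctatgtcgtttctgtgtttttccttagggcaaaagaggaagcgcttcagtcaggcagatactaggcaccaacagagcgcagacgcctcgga
Ect2, chr3:27153834-27154054, minus strand: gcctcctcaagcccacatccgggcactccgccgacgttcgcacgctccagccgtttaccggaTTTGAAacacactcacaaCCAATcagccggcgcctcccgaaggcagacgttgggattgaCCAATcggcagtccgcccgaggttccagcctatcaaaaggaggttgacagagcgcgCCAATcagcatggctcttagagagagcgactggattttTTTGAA
Top2a, chr11:99024190-99024389, minus strand: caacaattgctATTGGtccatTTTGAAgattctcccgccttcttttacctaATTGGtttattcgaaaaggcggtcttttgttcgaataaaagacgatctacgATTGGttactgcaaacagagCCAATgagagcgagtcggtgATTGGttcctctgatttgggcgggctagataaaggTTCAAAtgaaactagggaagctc
Ube2c, chr2:164769729-164769928, plus strand: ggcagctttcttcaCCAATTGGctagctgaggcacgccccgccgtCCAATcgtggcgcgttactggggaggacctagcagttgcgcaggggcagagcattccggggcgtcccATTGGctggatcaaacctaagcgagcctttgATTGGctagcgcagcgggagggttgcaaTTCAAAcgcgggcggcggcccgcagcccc
Mki67, chr7:135716380-135716579, minus strand: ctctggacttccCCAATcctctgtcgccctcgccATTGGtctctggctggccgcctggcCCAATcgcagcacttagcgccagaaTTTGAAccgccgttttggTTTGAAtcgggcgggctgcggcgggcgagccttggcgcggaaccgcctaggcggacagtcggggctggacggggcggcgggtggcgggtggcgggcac
Ttk, chr9:83834489-83834701, plus strand: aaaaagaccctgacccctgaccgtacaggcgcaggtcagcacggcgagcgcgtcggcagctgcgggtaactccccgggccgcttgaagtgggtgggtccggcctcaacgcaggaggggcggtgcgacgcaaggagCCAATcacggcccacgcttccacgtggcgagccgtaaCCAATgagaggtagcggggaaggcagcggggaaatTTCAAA
Mki67 and Ect2 carry 2 CHR copies on the gene's strand, and Top2a has 1 on each strand. In Smc2, Ube2c and Ttk the letters lie on the opposite strand. Birc5, Mad2l1 and Nuf2, which also rose steeply, held no TTTGAA in these windows.

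Signals are deposited MAS5 intensities in arbitrary units, and differences are in log2 of the signal plus 16 units, with standard errors (SE) and adjusted p from 1 limma fit over 14102 genes (two-sided, Benjamini-Hochberg). A gene was called at an adjusted p under 0.05. Fold values are on the same scale, understate the change of low signals and are given only where every array compared read at least 64 units. Yap1 itself read 999 to 1306 units on WT arrays and 449.6 to 797 on KO arrays, and at day 2 it was lower in KO by log2 -0.92 ± 0.17 (adjusted p = 0.00844). Array medians lay between 231.6 and 277 units. The KO day 2 arrays spanned a narrower range, with highest signals of 48217 to 67457 units against 103216 to 116918 on the WT day 2 arrays. At day 0 the highest signals were 71165 to 73118 units in WT and 88576 to 102372 in KO. The highest signals thus went up from day 0 to day 2 in WT and down in KO, and both changes over time cross such a shift. Among tested genes with a mean log2 signal over 11 the median difference KO minus WT at day 2 was -0.19, and below 8 it was 0.21. Only 1 member, Pttg1, lay over 11 (-0.37), and the 5 members under 8 had a median of -1.06. In the 3 bins between, members had medians of -0.59, -0.47 and -0.65 where all genes had 0.24, 0.14 and -0.02.

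In WT liver 25 of the 47 tested members rose from day 0 to day 2 and 1 fell, while 7.26% of all tested genes rose and 5.38% fell. Among those that rose, Mad2l1, Ttk, Birc5, Nuf2, Smc2, Ncapd2, Top2a, Mki67, Ect2, Anln and Ube2c passed the filter only through treated arrays. Over all 53 members the median change was 1.08 on the log2 scale, against -0.10 over all genes. The change was positive for 42 of 53, against 42.2% of all genes. The changes ran from -1.00 for Cenpk to 4.57 for Birc5. In KO liver 14 of 47 rose, against 4.20% of all genes, and none fell by limma's test, which called 4.49% of all genes lower. Mad2l1, Top2a, Mki67, Ect2 and Ube2c are also among these 14. At an unadjusted p under 0.05, 25 members were higher in KO liver and 0 lower, but the share of all genes at that level is not given here. The median over the 53 in KO liver was 0.61, against 0.04 over all genes. The count in KO was 6 without KO day 0 replicate 1, 8 without KO day 2 replicate 1, and 8 with probe sets averaged or only the KO day 0 and day 2 arrays fitted, and 10 of the 14 calls were lost without at least 1 array. The rises in WT and KO liver are separate comparisons, each with its own day 0 arrays.

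**Figure D1:**
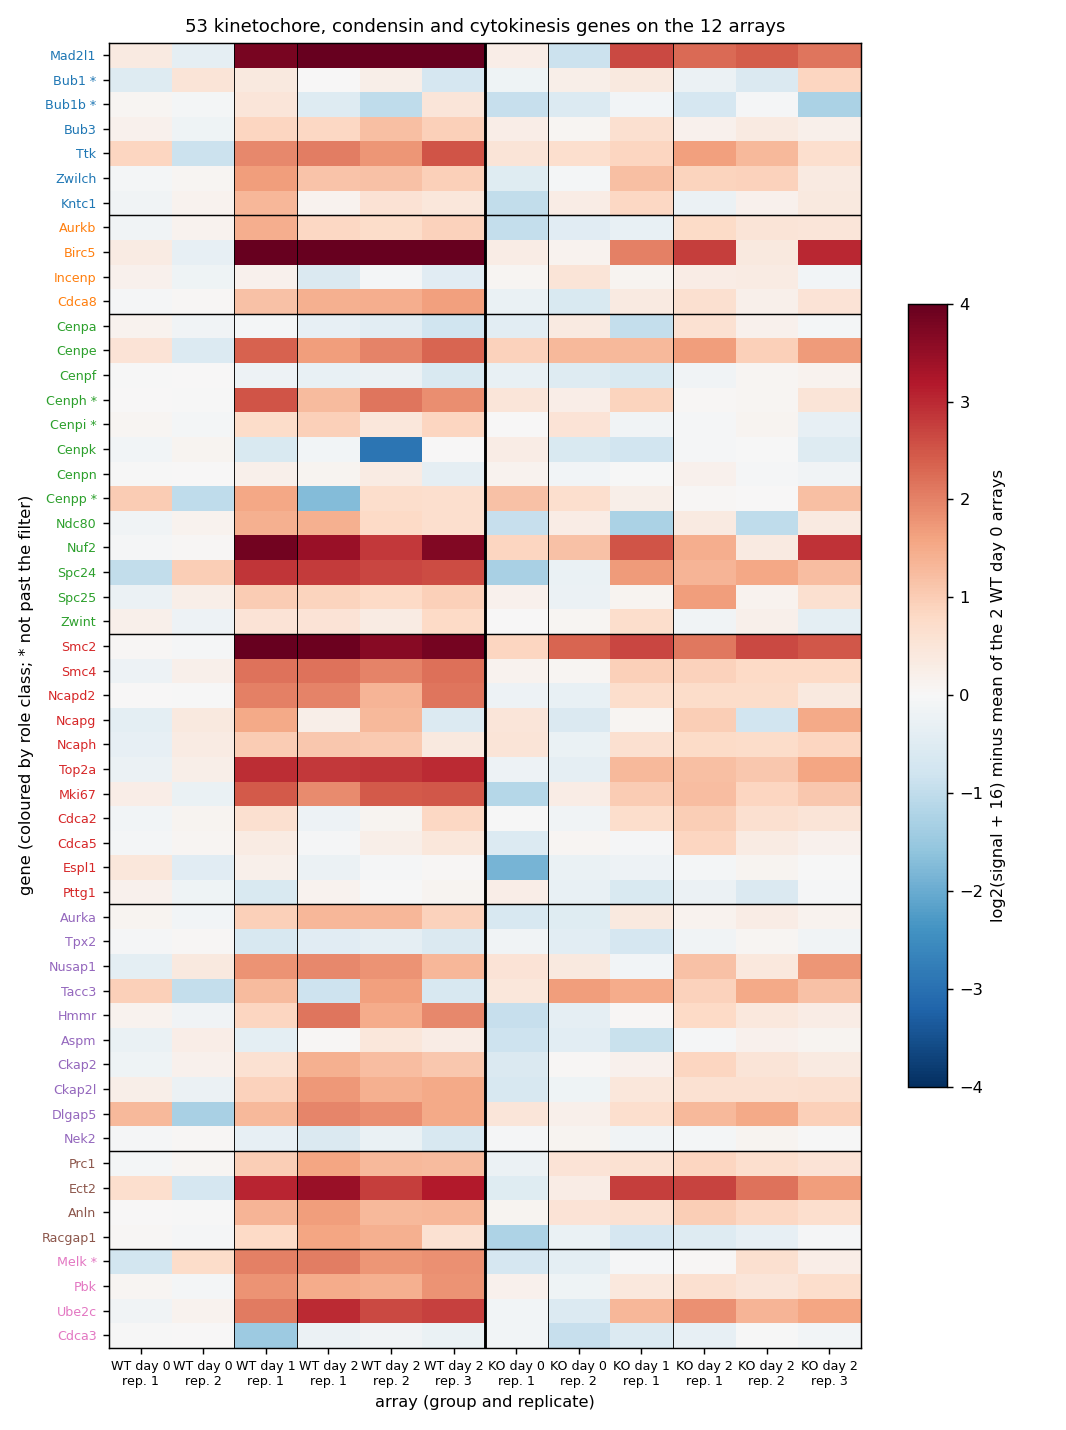
Each row is 1 of the 53 genes, coloured by role class, and each column 1 of the 12 arrays; colour gives log2(signal + 16) minus the mean of the 2 WT day 0 arrays, limited to between -4 and 4. The WT day 1 and day 2 columns are red for most genes, the KO columns of the same days are paler, and the median over the 53 relative to WT day 0 is 1.08 at WT day 2 and 0.58 at KO day 2.

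Of the 5 spindle checkpoint genes tested (of 7), 3 rose in WT liver and 1 in KO liver. Mad2l1, the checkpoint protein that keeps the anaphase-promoting complex inactive until every kinetochore is attached, read 109 and 58.3 units at day 0, 1315 in the day 1 pool and 2149, 1588 and 1908 on the day 2 arrays in WT liver. In KO liver it read 99.2 and 36.6 units at day 0, 584 in the day 1 pool and 446, 499 and 410.0 on the day 2 arrays. The day 0 arrays were low in both genotypes, and all 3 KO arrays at day 2 lay below all 3 WT arrays. The change was 4.29 ± 0.34, adjusted p = 1.12e-05 in WT and 2.58 ± 0.34, adjusted p = 0.000665 in KO, and at day 2 KO was lower by 4.04-fold (-2.01 ± 0.31, adjusted p = 0.00442). Bub3, which carries the checkpoint kinases to kinetochores, was bright throughout, with 1328 and 1063 units at day 0, 2178 in the day 1 pool and 2128, 2734 and 2316 on the day 2 arrays in WT liver. In KO liver Bub3 read 1446 and 1248 units at day 0, 1879 in the day 1 pool and 1354, 1539 and 1381 on the day 2 arrays. It rose 1.99-fold in WT (0.99 ± 0.15, adjusted p = 0.00129), while the KO change was 0.08 ± 0.15 with an adjusted p of 0.814. Ttk, the kinase MPS1 that starts checkpoint signalling, read 220.2 and 55.4 units at day 0, 479 in the day 1 pool and 520.5, 429 and 734 on the day 2 arrays in WT liver and 169.8 and 192 units at day 0, 218 in the day 1 pool and 391, 301 and 193 on the day 2 arrays in KO liver. The 2 WT day 0 arrays of Ttk stood well apart, and its WT rise of 2.12 ± 0.49, adjusted p = 0.0145 was lost without WT day 0 replicate 2 (1.25, adjusted p = 0.152) or WT day 2 replicate 3 (1.91, adjusted p = 0.0557). Zwilch and Kntc1, subunits of the complex that recruits dynein and Mad1 to kinetochores, changed by 1.08 ± 0.38 and 0.38 ± 0.40 in WT liver without passing the test. The kinases Bub1 and Bub1b had no probe set past the filter and were not tested, and their brightest probe sets read under 192 units on every array. A dimmer probe set of Bub1, picked after its values were seen, read 28.4 and 37.3 units before TCPOBOP and 309.5, 46.8 and 218 at day 2 in WT liver and 26.5 and 21 units before TCPOBOP and 22.3, 28.1 and 28.5 at day 2 in KO liver, so 2 of the 3 WT day 2 arrays stood above all others of these groups.

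The chromosomal passenger complex, which corrects faulty attachments and later steers cytokinesis, had 3 of 4 genes rising in WT liver and 2 in KO liver. Birc5 (survivin) had the largest change of any member. Its WT signals were 68.5 and 38.3 units at day 0, 1361 in the day 1 pool and 1649, 1438 and 1687 on the day 2 arrays. Its KO signals were 66.5 and 58 units at day 0, 256 in the day 1 pool and 443, 72.3 and 535 on the day 2 arrays. KO replicate 2 at day 2 was near the day 0 level while the other two KO arrays were several-fold above it. The WT change was 4.57 ± 0.62, adjusted p = 0.00052, the KO change 1.85 ± 0.62, adjusted p = 0.0933, and at day 2 KO was 5.7-fold lower (-2.51 ± 0.56, adjusted p = 0.0195). That last call was lost without WT day 2 replicate 1 (-2.48, adjusted p = 0.0567) or replicate 3 (-2.47, adjusted p = 0.0666). Cdca8 (borealin) read 399 and 421 units at day 0, 943 in the day 1 pool and 1114, 1156 and 1306 on the day 2 arrays in WT liver and 336 and 264 units at day 0, 525 in the day 1 pool and 647, 479 and 603 on the day 2 arrays in KO liver. It rose 2.83-fold in WT (1.50 ± 0.19, adjusted p = 0.000373) and 1.87-fold in KO (0.91 ± 0.19, adjusted p = 0.0129), and was 2.05-fold lower in KO at day 2 (-1.04 ± 0.17, adjusted p = 0.00646). The KO rise was lost without KO day 0 replicate 2 (0.74, adjusted p = 0.0738) or KO day 2 replicate 1 (0.82, adjusted p = 0.0514). Aurkb, the kinase of the complex, was by its brightest probe set the exception among the 25 genes that rose in WT: its KO change was the larger. It read 363 and 450.5 units at day 0, 1143 in the day 1 pool and 725, 689 and 785 on the day 2 arrays in WT liver, so the day 1 pool was the highest array. In KO liver it read 199 and 291 units at day 0, 325 in the day 1 pool and 691, 587 and 570.2 on the day 2 arrays, where the pool stayed near day 0. The changes were 0.83 ± 0.22, adjusted p = 0.0267 in WT and 1.29 ± 0.22, adjusted p = 0.00304 in KO, and the difference between them, 0.46 ± 0.31, did not pass the test (adjusted p = 0.41). A dimmer probe set of Aurkb, not past the filter, went the other way, with changes of 1.22 in WT and 0.25 in KO. The WT call of Aurkb was lost without WT day 0 replicate 1 (0.68, adjusted p = 0.192), WT day 0 replicate 2 (0.98, 0.0665), WT day 2 replicate 1 (0.84, 0.0569) or WT day 2 replicate 3 (0.78, 0.0731). Incenp, the scaffold of the complex, changed by -0.37 ± 0.22 in WT liver (adjusted p = 0.326).

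Among centromere and kinetochore genes 10 of 13 were tested, of which 3 rose in WT liver and 1 in KO liver. The Ndc80 complex is the microtubule-binding arm of the kinetochore. Its subunit Nuf2 read 33.5 and 36.7 units at day 0, 729.6 in the day 1 pool and 542, 346 and 648 on the day 2 arrays in WT liver. In KO liver Nuf2 read 75.9 and 99.2 units at day 0, 278 in the day 1 pool and 125, 50.2 and 361 on the day 2 arrays, with the 3 day 2 arrays spread widely and overlapping day 0. Nuf2 rose in WT (3.33 ± 0.64, adjusted p = 0.00522) and did not pass in KO (0.56 ± 0.64, adjusted p = 0.667), and the difference at day 2 was -1.75 ± 0.57, adjusted p = 0.076. Spc24 of the same complex read 125 and 536 units at day 0, 2014 in the day 1 pool and 1942, 1779.5 and 1703 on the day 2 arrays in WT liver and 98.3 and 217 units at day 0, 903 in the day 1 pool and 697, 803 and 646 on the day 2 arrays in KO liver. It rose 6.52-fold in WT (2.70 ± 0.45, adjusted p = 0.00218) and 4.47-fold in KO (2.16 ± 0.45, adjusted p = 0.0113), and the KO call was lost without KO day 0 replicate 1 (1.65, adjusted p = 0.102). The other subunits, Spc25 (0.88 ± 0.36) and Ndc80 (0.97 ± 0.67), did not pass in WT. Cenpe, a kinesin that carries chromosomes to the spindle equator, read 166 and 70.8 units at day 0, 628 in the day 1 pool and 388, 484 and 614 on the day 2 arrays in WT liver and 223 and 295 units at day 0, 289 in the day 1 pool and 383, 225 and 390.4 on the day 2 arrays in KO liver. WT arrays at day 2 were all above day 0, KO arrays overlapped it, and the WT rise was 4.01-fold (2.00 ± 0.39, adjusted p = 0.00544). Without WT day 0 replicate 2 the rise of Cenpe was 1.47 and not called (adjusted p = 0.0698). Cenpa, the histone H3 variant that marks the centromere, and Cenpf changed by -0.52 ± 0.27 and -0.38 ± 0.17 in WT. Zwint, which links the checkpoint complex to the kinetochore, was called lower in KO at day 2 (-0.65 ± 0.18, adjusted p = 0.0437) without a called rise in WT (0.55 ± 0.20, adjusted p = 0.0971), and 4 of the 6 day 2 arrays each ended that call when left out: WT replicates 1 and 3 (adjusted p = 0.094 and 0.139) and KO replicates 1 and 3 (0.107 and 0.151). The dim genes Cenph, Cenpi and Cenpp had signals of at most 223 units.

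**Figure D2:**
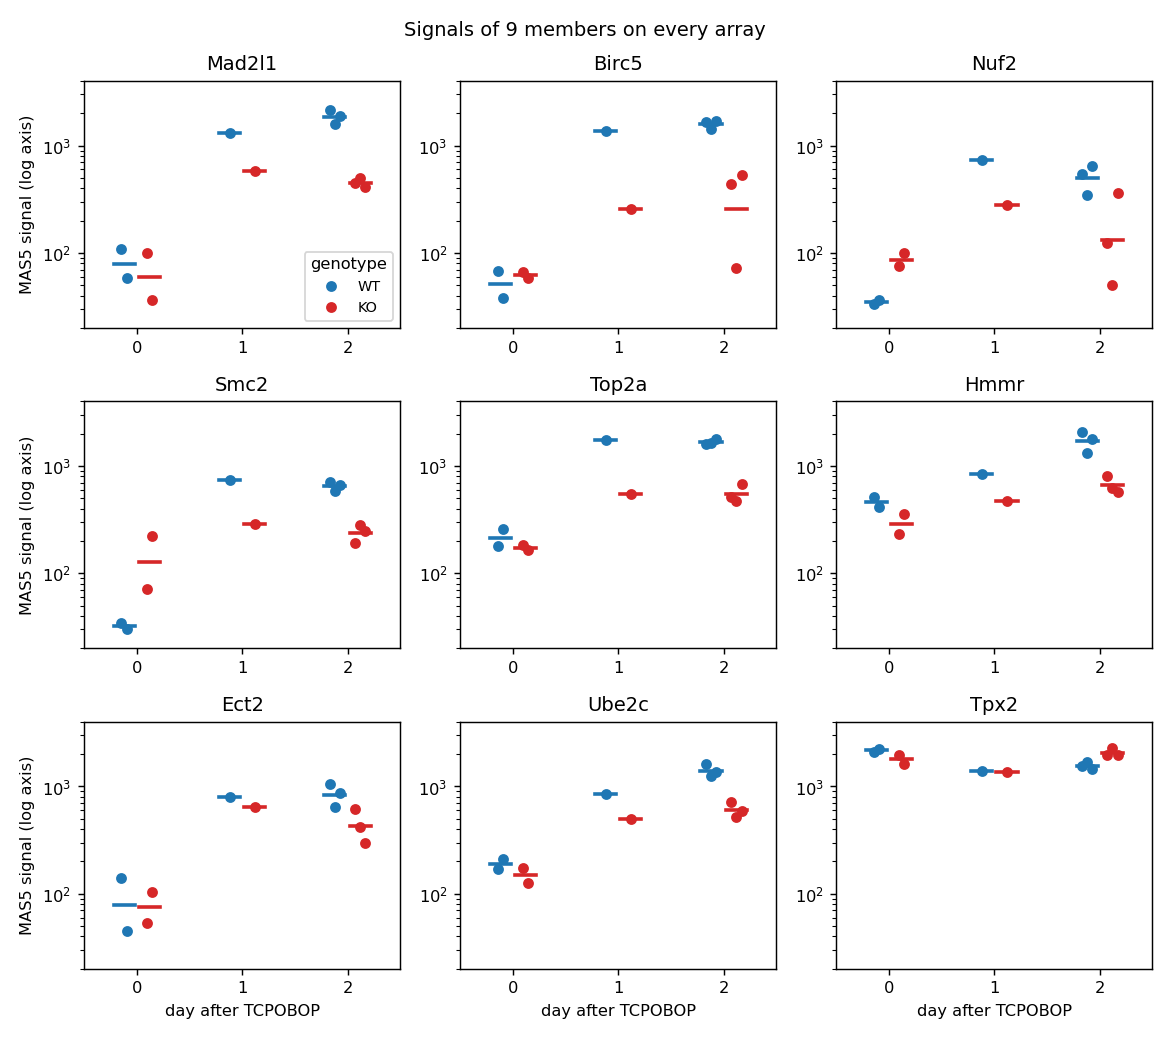
MAS5 signal on a log axis against the day after TCPOBOP for 9 members, with 1 point per array, WT in blue and KO in red, and a bar at the geometric mean of each group. Tpx2, read by its brightest probe set, stays between 1354 and 2306 units, and the other panels climb in WT to a higher level than in KO.

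The condensin and sister chromatid genes (11 of 11 tested) held 5 rises in WT liver and 3 in KO liver, and 5 were lower in KO than in WT at day 2. Smc2 and Smc4 form the ATPase core of both condensins. Smc2 read 34.1 and 30.3 units at day 0, 742 in the day 1 pool and 707, 583 and 671 on the day 2 arrays in WT liver. In KO liver Smc2 read 72.1 and 224 units at day 0, 292 in the day 1 pool and 191, 282 and 251 on the day 2 arrays, where the 2 day 0 arrays stood apart from each other and above both WT day 0 arrays. The WT change was 3.79 ± 0.44, adjusted p = 0.000165, the KO change 0.81 ± 0.44, adjusted p = 0.307 and the day 2 difference -1.39 ± 0.39, adjusted p = 0.0461. The day 2 call was lost without any 1 of the 6 day 2 arrays (adjusted p between 0.0788 and 0.13). Smc4 read 286 and 384 units at day 0, 1559.5 in the day 1 pool and 1565, 1354 and 1592 on the day 2 arrays in WT liver and 364 and 354 units at day 0, 659.7 in the day 1 pool and 649, 588 and 589 on the day 2 arrays in KO liver. The genotypes did not overlap at day 2. It rose 4.36-fold in WT (2.13 ± 0.17, adjusted p = 1.42e-05) and 1.67-fold in KO (0.74 ± 0.17, adjusted p = 0.0223), and was 2.43-fold lower in KO at day 2 (-1.28 ± 0.16, adjusted p = 0.00181). The KO rise was lost without any 1 of the 5 KO arrays compared (adjusted p between 0.0527 and 0.0721). Ncapd2, a subunit of condensin I, rose in WT (1.83 ± 0.33, adjusted p = 0.00361) and was lower in KO at day 2 (-1.21 ± 0.30, adjusted p = 0.0283), a call lost without WT replicates 1 or 3 or any of the 3 KO arrays of that day (adjusted p between 0.0649 and 0.1). The other condensin I subunits Ncapg (0.32 ± 0.80) and Ncaph (0.84 ± 0.28) did not pass in WT.

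Top2a, the topoisomerase that untangles sister chromatids, read 178 and 258 units at day 0, 1756 in the day 1 pool and 1605, 1648 and 1793 on the day 2 arrays in WT liver. In KO liver Top2a read 184 and 163 units at day 0, 550.3 in the day 1 pool and 520.2, 471 and 677 on the day 2 arrays. The groups did not overlap at day 2, and each was tight. Top2a rose 7.35-fold in WT (2.88 ± 0.22, adjusted p = 7.47e-06) and 2.99-fold in KO (1.58 ± 0.22, adjusted p = 0.000853), and was 3-fold lower in KO at day 2 (-1.58 ± 0.19, adjusted p = 0.00181). Mki67, which coats mitotic chromosomes and keeps them apart, read 213 and 146 units at day 0, 1032 in the day 1 pool and 701, 1039.6 and 1062 on the day 2 arrays in WT liver. In KO liver it read 72 and 219 units at day 0, 377 in the day 1 pool and 433, 336 and 392 on the day 2 arrays. It rose 4.85-fold in WT (2.28 ± 0.38, adjusted p = 0.0022) and 2.79-fold in KO (1.48 ± 0.38, adjusted p = 0.032). The KO rise of Mki67 was 0.77 without KO day 0 replicate 1 (adjusted p = 0.205) and was also lost without any of the 3 KO day 2 arrays (adjusted p between 0.0636 and 0.0928). Its day 2 difference of -1.22 ± 0.34, adjusted p = 0.0458 was lost without any 1 of the 6 day 2 arrays (adjusted p between 0.0569 and 0.139). Of the genes that hold and release sister chromatids, Cdca5 (sororin), Espl1 (separase) and Pttg1 (securin) were not called in either genotype. Pttg1 was the brightest of them and read 3748 to 6967 units over all arrays.

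Spindle assembly genes, all 10 tested, held 5 rises and 1 fall in WT liver and 5 rises in KO liver. Hmmr, a microtubule-bound protein of the spindle poles, read 509.7 and 416 units at day 0, 848 in the day 1 pool and 2092, 1314 and 1783 on the day 2 arrays in WT liver and 234 and 359 units at day 0, 476 in the day 1 pool and 806, 624 and 574 on the day 2 arrays in KO liver. It rose 3.6-fold in WT (1.85 ± 0.25, adjusted p = 0.000483) and 2.21-fold in KO (1.14 ± 0.25, adjusted p = 0.0137), the latter lost without KO day 0 replicate 1 (0.85, adjusted p = 0.101) or KO day 2 replicate 1 (1.00, 0.0528). At day 2 it was 2.53-fold lower in KO (-1.34 ± 0.22, adjusted p = 0.00615), with no overlap. Nusap1, which bundles microtubules near chromatin, read 135 and 244 units at day 0, 677 in the day 1 pool and 739, 665 and 479 on the day 2 arrays in WT liver and 273 and 244 units at day 0, 167 in the day 1 pool and 428, 250.2 and 664 on the day 2 arrays in KO liver. Its WT rise (1.68 ± 0.39, adjusted p = 0.0152) was lost without WT day 0 replicate 1 (1.29, adjusted p = 0.152) or WT day 2 replicate 1 (1.55, 0.0506), and its KO day 2 arrays ranged from day 0 values to those of WT. Ckap2l, a spindle protein, read 627 and 444 units at day 0, 1017 in the day 1 pool and 1800.0, 1456 and 1534 on the day 2 arrays in WT liver and 331 and 467 units at day 0, 730.5 in the day 1 pool and 809, 821 and 832 on the day 2 arrays in KO liver. It rose 2.95-fold in WT (1.56 ± 0.20, adjusted p = 0.000317) and was 1.92-fold lower in KO at day 2 (-0.94 ± 0.18, adjusted p = 0.00985). Its KO rise of 1.03 ± 0.20 missed the threshold without KO day 0 replicate 1 (0.79, adjusted p = 0.053). Aurka, the kinase of the spindle poles, rose 2.29-fold in WT (1.19 ± 0.18, adjusted p = 0.000967) and 1.69-fold in KO (0.76 ± 0.18, adjusted p = 0.021). The KO call was lost without KO day 2 replicate 2 (0.70, adjusted p = 0.0792). At day 2 Aurka was 2-fold lower in KO (-1.00 ± 0.16, adjusted p = 0.00533). Its day 0 difference was -0.56 ± 0.19 (adjusted p = 0.46), with 352 and 396 units in KO and 599 and 522 in WT. The difference in response was -0.44 ± 0.25 (adjusted p = 0.34). Aspm, which focuses spindle poles, was called in KO alone (0.72 ± 0.20, adjusted p = 0.0497, against 0.27 ± 0.20 in WT), and the difference between the genotypes did not pass (0.45 ± 0.29, adjusted p = 0.393). That call ended without any of KO day 0 replicate 1 (0.51, adjusted p = 0.249) or KO day 2 replicates 1 to 3 (adjusted p between 0.0761 and 0.147).

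Tpx2, the activator of Aurka on spindle microtubules, was called lower in WT. Its brightest probe set read 2117 and 2214 units at day 0, 1385 in the day 1 pool and 1565, 1684 and 1448 on the day 2 arrays in WT liver and 1979.6 and 1618 units at day 0, 1354 in the day 1 pool and 1964, 2306 and 1954 on the day 2 arrays in KO liver. The fall was small (-0.47 ± 0.14, adjusted p = 0.0492), it was lost without any 1 of the 5 WT arrays compared (adjusted p between 0.0595 and 0.229), and dimmer probe sets of Tpx2 moved the other way, as given below.

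All 4 cytokinesis genes rose in WT liver and 1 of 4 in KO liver. Ect2, the exchange factor that activates RhoA at the cell equator, read 140.4 and 44.8 units at day 0, 795 in the day 1 pool and 1050.5, 644 and 864 on the day 2 arrays in WT liver. In KO liver Ect2 read 53.5 and 104 units at day 0, 641 in the day 1 pool and 613, 422 and 295 on the day 2 arrays. It rose in both (3.13 ± 0.45, adjusted p = 0.000761 in WT and 2.27 ± 0.45, adjusted p = 0.00823 in KO), and the day 2 difference, -0.95 ± 0.40, adjusted p = 0.146, did not pass although no KO array reached a WT array. The KO rise was lost without KO day 0 replicate 1 (1.87, adjusted p = 0.0639). Anln (anillin), the scaffold of the contractile ring, read 172 and 171 units at day 0, 468 in the day 1 pool and 585, 446 and 451 on the day 2 arrays in WT liver and 185 and 257 units at day 0, 272 in the day 1 pool and 356, 315 and 285 on the day 2 arrays in KO liver. It rose 2.7-fold in WT (1.43 ± 0.28, adjusted p = 0.00613), and the KO change was 0.51 ± 0.28, adjusted p = 0.323. Prc1, the bundler of the central spindle, read 448 and 506 units at day 0, 967 in the day 1 pool and 1466, 1182 and 1176 on the day 2 arrays in WT liver and 398 and 701 units at day 0, 726 in the day 1 pool and 876, 766 and 704 on the day 2 arrays in KO liver. It rose 2.61-fold in WT (1.38 ± 0.23, adjusted p = 0.0018), and in KO the change was 0.54 ± 0.23, adjusted p = 0.173. Racgap1, the GTPase-activating subunit of centralspindlin, read 497 and 468 units at day 0, 844 in the day 1 pool and 1478, 1324 and 742 on the day 2 arrays in WT liver. In KO liver Racgap1 read 198 and 400.3 units at day 0, 296 in the day 1 pool and 335, 380.1 and 466 on the day 2 arrays, and every KO array of any day lay below the lowest WT array, by little in the case of KO day 2 replicate 3. It was 2.83-fold lower in KO at day 2 (-1.50 ± 0.30, adjusted p = 0.0122), while the day 0 difference was -0.74 ± 0.36, adjusted p = 0.639. Its WT rise (1.21 ± 0.33, adjusted p = 0.0338) was lost without WT day 0 replicate 1 (1.25, adjusted p = 0.14), WT day 0 replicate 2 (1.16, 0.171), WT day 2 replicate 1 (1.02, 0.103) or WT day 2 replicate 2 (1.09, 0.0954).

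Of the mitotic kinases and ubiquitin ligation genes 3 of 4 were tested, and 2 rose in WT and 1 in KO. Ube2c, the ubiquitin-conjugating enzyme of the anaphase-promoting complex, read 169 and 213 units at day 0, 846 in the day 1 pool and 1622, 1263 and 1353 on the day 2 arrays in WT liver. In KO liver it read 174 and 126 units at day 0, 501 in the day 1 pool and 715, 518 and 596 on the day 2 arrays. The groups did not overlap at day 2. Ube2c rose 6.89-fold in WT (2.79 ± 0.23, adjusted p = 1.42e-05) and 3.77-fold in KO (1.91 ± 0.23, adjusted p = 0.000339), and was 2.29-fold lower in KO at day 2 (-1.19 ± 0.21, adjusted p = 0.00686). Pbk, a mitotic kinase, read 451 and 408 units at day 0, 1516 in the day 1 pool and 1232, 1173 and 1536 on the day 2 arrays in WT liver and 485 and 380.2 units at day 0, 578 in the day 1 pool and 678, 605 and 705 on the day 2 arrays in KO liver. It rose 2.97-fold in WT (1.57 ± 0.18, adjusted p = 0.000175) and was 1.95-fold lower in KO at day 2 (-0.96 ± 0.16, adjusted p = 0.00651), while its KO change was 0.60 ± 0.18, adjusted p = 0.0635. The kinase Melk was too dim to test and read at most 35.2 units on KO arrays, against 96 to 119.9 on the WT day 2 arrays.

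Between the genotypes at day 2, 16 of the 47 tested members were lower in KO and 0 higher, where 5.23% of all tested genes were lower and 3.99% higher. At an unadjusted p under 0.05, 22 were lower and 5 higher, with no share of all genes at that level to set beside them. Of the 16 called, Mad2l1, Birc5, Smc2, Ncapd2, Top2a, Mki67 and Ube2c passed the filter only through treated arrays. The median over the 53 was -0.60, against 0.09 over all genes, and 39 of 53 were negative, against 43% of all genes. All 25 genes called higher in WT had lower means in KO at day 2, and 15 of them were among the 16 called lower, Zwint being the exception. These counts share the WT day 2 arrays. Of the 25, 10 did not pass at day 2: Anln, Aurkb, Cenpe, Ckap2, Ect2, Nuf2, Nusap1, Prc1, Spc24 and Ttk. Before adjustment their 95% intervals lay below 0 for Anln, Ckap2, Ect2, Nuf2, Prc1 and Spc24, from -3.01 to -0.50 for Nuf2 to -1.16 to -0.05 for Anln, and included 0 for Aurkb, Cenpe, Nusap1 and Ttk (-1.86 to 0.04). In bulk liver, fewer dividing cells and less RNA per cell cannot be told apart. Without regard to any test, the 3 KO day 2 arrays lay below all 3 WT arrays for 28 of the 53 members and 13.8% of all genes. All 3 day 2 arrays lay above both day 0 arrays for 34 of 53 members in WT, against 17.1% of all genes, and for 28 of 53 in KO, against 20.4%.

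**Figure D3:**
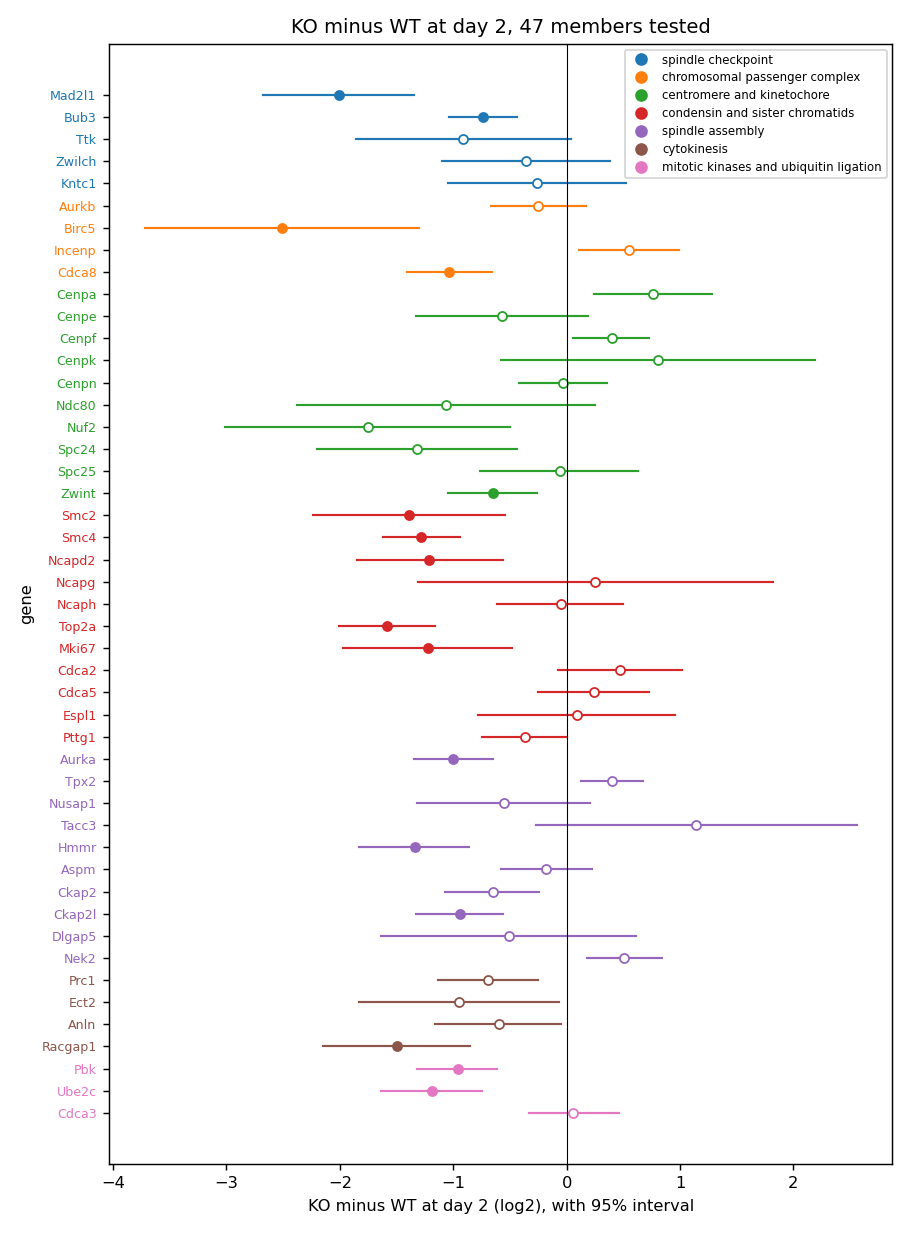
KO minus WT at day 2 on the log2 scale for the 47 members tested, as estimates with 95% intervals, coloured by role class, with filled points for the 16 genes called. Every filled point lies below 0, from -0.65 for Zwint to -2.51 for Birc5.

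Among 5 hepatocyte markers tested, the 3 bright secretory genes Alb, Apoa1 and Ttr were lower in KO at day 2, while Tat (0.02 ± 0.14, adjusted p = 0.923) and Hnf4a (-0.21 ± 0.12, adjusted p = 0.261) did not pass. From day 0, 4 of the 5 fell in KO, while in WT Alb and Apoa1 rose and Tat fell. The summed signal of the 5 was 151286 to 195615 units on KO day 2 arrays against 287187 to 321832 on WT day 2 arrays. At day 0 that sum was 261684 to 307578 in KO and 222939 to 227238 in WT. The probe set of the spiked Cre control, a gene that the virus of the KO mice also carries, read 12457 to 14874 units on the KO day 2 arrays and 29274 to 29887 on the WT day 2 arrays. On the day 0 arrays it read 26637 and 24438 units in KO and 17491 and 18617 in WT. Of 8 Kupffer cell and macrophage markers 1, Clec4f, was lower in KO, and their sums were 8778 to 12360 in KO and 11819 to 12262 in WT. Of 7 lymphocyte markers none was called at day 2 by limma, with sums of 4800 to 5527 in KO and 3204 to 4783 in WT, and of 6 sinusoidal endothelial markers 1, Clec4g, was higher in KO, with sums of 5939 to 6983 in KO and 4412 to 5310 in WT that did not overlap. Neutrophil sums were 2573 to 3047 in KO and 2329 to 2623 in WT. Erythroid sums were 1955 to 2175 and 1834 to 1919, stellate and mesenchymal sums 5638 to 6414 and 4956 to 5628, and cholangiocyte sums 950.0 to 1459 and 1214 to 1535. The lymphocyte, erythroid, and stellate and mesenchymal sums did not overlap either, and were likewise higher in KO, by little between the nearest arrays. Kupffer cell, neutrophil and cholangiocyte sums overlapped. The part of these signals and sums in the members' difference was not tested.

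At day 0, before TCPOBOP, 0 members were called between the genotypes by limma, where 0.0638% of all tested genes were higher and 0.106% lower in KO. At an unadjusted p under 0.05, 2 were higher and 6 lower, with no share of all genes at that level to set beside them. The median over the 53 was -0.08, against -0.02 over all genes. The members ranged from -1.07 for Espl1 to 1.59 for Smc2. Without KO day 0 replicate 1, Smc2 was called higher and Cdca3 lower in KO.

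Whether the response itself differed was tested as the change in KO minus the change in WT. Of the 47, 4 were lower and 0 higher, where 2.06% of all tested genes were lower and 1.08% higher. At an unadjusted p under 0.05, 14 were lower and 2 higher, with no share of all genes at that level to set beside them. Of the 4, 3 belong to the condensin class: Smc2 (-2.99 ± 0.62, adjusted p = 0.0292), Smc4 (-1.39 ± 0.25, adjusted p = 0.0188) and Top2a (-1.30 ± 0.31, adjusted p = 0.0442), and the fourth was Bub3 (-0.91 ± 0.22, adjusted p = 0.0463). Each of these calls was lost when some 1 array was left out: Bub3 without any array compared except KO day 0 replicate 2 (-1.07 to -0.75), Smc2 without any except the 2 KO day 0 arrays (-3.10 to -2.84), and Smc4 without WT day 0 replicate 1 (-1.19, adjusted p = 0.0651) or KO day 2 replicate 2 (-1.37, 0.0566). Top2a's call was lost without any array compared except KO day 0 replicate 2 and KO day 2 replicate 3 (-1.55 to -1.05). Of the 4 genes, Smc2 and Top2a passed the filter only through treated arrays. Over the 53 the median was -0.55, against 0.10 over all genes. It was negative for 36 of the 53, against 43.8% of all genes. Of the 25 genes that rose in WT, 24 had a smaller change in KO, among them Birc5 (-2.72 ± 0.88, adjusted p = 0.112) and Nuf2 (-2.76 ± 0.91, adjusted p = 0.117), which did not pass this test. The 25 were chosen by their WT change, which this difference subtracts, so a smaller change in KO was favoured in advance.

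**Figure D4:**
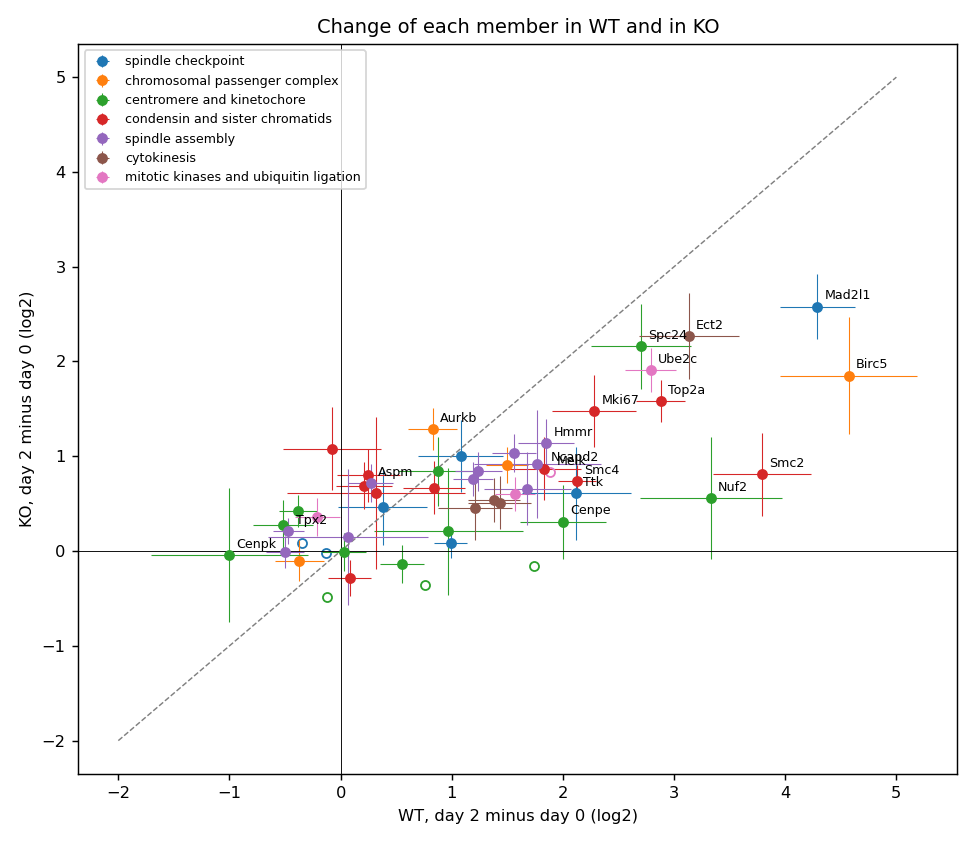
Change from day 0 to day 2 in KO against that in WT, both on the log2 scale, with 1 point per member coloured by role class, bars of 1 SE, open points for the 6 genes not past the filter and a dashed line of equal change. Most points with a large WT change lie below the line, such as Smc2 (3.79 in WT and 0.81 in KO), and Aurkb by its brightest probe set (0.83 and 1.29) lies above it.

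The day 1 arrays are 1 pool per genotype, so they give no test. In the WT pool 26 of the 47 members were over 2-fold above the day 0 mean, where 6.35% of all tested genes were, and Cdca3 was over 2-fold below it. The 26 include all 14 members that passed the filter only through treated arrays. In the KO pool 11 of 47 were over 2-fold above day 0, where 6.11% of all genes were. Among these 11, Mad2l1, Zwilch, Birc5, Nuf2, Smc2, Top2a, Mki67, Ect2 and Ube2c passed the filter that way. The KO pool was over 2-fold below the WT pool for 17 of 47 members, where 5.11% of all genes were. Among these 17, Mad2l1, Ttk, Birc5, Ndc80, Nuf2, Smc2, Ncapd2, Ncapg, Top2a and Mki67 passed the filter only through treated arrays. The KO pool was below the WT pool at all for 47 of the 53, against 51.1% of all genes. The median change over the 53 was 1.17 in the WT pool and 0.43 in the KO pool, against -0.06 over all genes in each. The members differed in their day of highest signal. By group mean, 24 were highest in the WT day 1 pool, where 16.9% of all genes were, among them Top2a, Smc2, Smc4, Nuf2, Spc24 and Cenpe, and 18 at WT day 2 (12.8% of all genes), among them Mad2l1, Birc5, Hmmr, Aurka, Ube2c and all 4 cytokinesis genes. For Hmmr the WT change was 0.86 in the pool and 1.85 at day 2, and for Top2a 2.94 and 2.88. The pool is 1 array set against means of 2 or 3, so the order of the pool and day 2 in a single gene has no replicate check.

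Several members have more than 1 probe set, and these disagreed. The 53 genes have 127 probe sets, of which 92 passed the filter, and 28 genes had more than 1. When each probe set was tested (an alternative chosen after seeing the data), 34 members had at least 1 called higher in WT, where 8.93% of all tested genes did, and none had 1 called lower by limma. In KO 18 members had at least 1 called higher (4.80% of all genes), and 19 had at least 1 called lower in KO at day 2 (6.76%). By a dimmer probe set, though not by the brightest, 9 members rose in WT: Cdca2, Cdca3, Cenpa, Cenpf, Cenpk, Ncapg, Nek2, Tacc3 and Tpx2. Cenpa's brightest probe set read 868 and 722 units before TCPOBOP and 622, 587 and 445 at day 2 in WT liver, and its dimmer one 22.2 and 171 units before TCPOBOP and 1133, 828 and 826 at day 2, a change of 3.47 ± 0.62, adjusted p = 0.00351. The dimmer probe set of Cenpa read 103 and 60.2 units before TCPOBOP and 298, 119.8 and 366 at day 2 in KO liver. Cdca3, which promotes mitotic entry, read 2208 and 2284 units before TCPOBOP and 1895, 2051 and 1873 at day 2 by its brightest and 489 and 420.2 units before TCPOBOP and 3728, 3676 and 3916 at day 2 by its next probe set (3.01 ± 0.18, adjusted p = 1.26e-06). In KO liver that next probe set of Cdca3 read 499 and 472 units before TCPOBOP and 1468, 1023 and 1510.0 at day 2, which was lower than in WT at day 2 (-1.51 ± 0.16, adjusted p = 0.00122). For Tpx2 a dimmer probe set read 239 and 364 units before TCPOBOP and 904, 766 and 938 at day 2 in WT liver (1.50 ± 0.24, adjusted p = 0.00189) and 282 and 238 units before TCPOBOP and 561, 439 and 401 at day 2 in KO liver. So the fall of Tpx2 given above describes its brightest probe set alone. The reverse also occurred: Smc2 rose by its brightest probe set, and its other one read 77.8 and 271 units before TCPOBOP and 194, 252 and 41.7 at day 2 in WT liver. Of the 28 genes, 14 had probe sets of both signs in WT, 3 had all called higher (Cdca8, Prc1 and Racgap1), and 9 had none called higher. Prc1's dimmer probe set was the one called between the genotypes at day 0. When all probe sets of a gene, dim ones included, were averaged instead, the WT calls of Anln, Aurka, Aurkb, Bub3, Cenpe and Smc2 were lost, as were the KO calls of Aspm, Aurka, Aurkb, Cdca8, Ckap2l, Smc4 and Top2a. At day 2 the averages of Aurka, Bub3, Hmmr, Ncapd2, Smc2 and Zwint no longer passed between the genotypes. Mki67, with 1 probe set, kept its difference of -1.22 in that fit at an adjusted p of 0.0629. With averages none of the 4 differences in response passed. With the stricter filter a dimmer probe set stood for Ncapd2, with a WT change of 0.19 and a day 2 difference of 0.27, neither called. The positions of the probes were not used here.

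**Figure D5:**
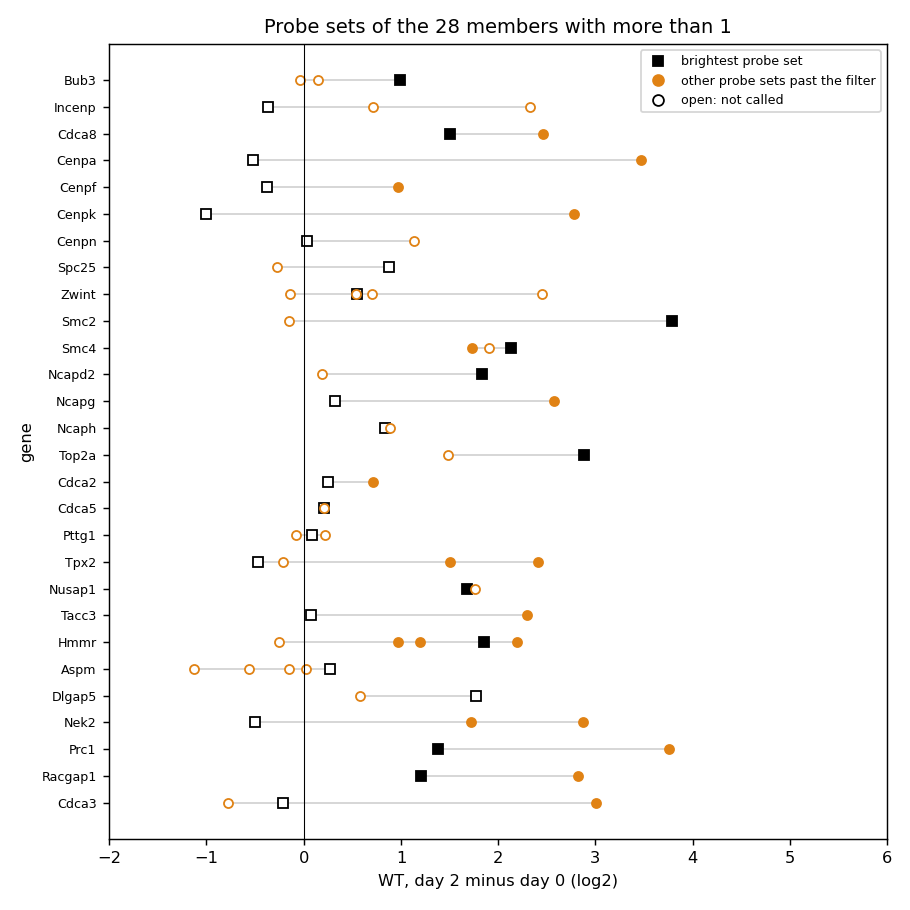
Change from day 0 to day 2 in WT liver on the log2 scale for each probe set past the filter of the 28 genes with more than 1, with the brightest as a black square, others as orange circles, and filled symbols for those called when each probe set was tested. Lines join the probe sets of a gene, and those of Cenpa, Cdca3 and Tpx2 lie on both sides of 0.

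Neighbouring genes of the same processes were read from 4 lists with no member in common with the 53. Of 11 mitotic drivers tested (cyclins, Cdk1 and regulators of mitotic entry and exit), 5 rose in WT (Ccnb2, Cdk1, Cdc20, Plk1 and Ccna2), 3 rose in KO (Ccnb2, Cdk1 and Ccna2), and 5 were lower in KO at day 2 (Cdc20, Ccnb2, Cdk1, Plk1 and Cks2). Of 17 other kinetochore and checkpoint genes, 4 rose in WT (Mad1l1, Cenpu, Cenpq and Cenpm), 1 fell (Cenpo) and none was called in KO by limma. At day 2 Cenpm was lower and Cenpo higher in KO. Of 13 cohesin and condensin II genes 1 rose in WT (Esco2, 2.87 ± 0.79, adjusted p = 0.0347) and 1 in KO (Ncapg2). Of 12 other spindle and cytokinesis genes 2 rose in WT (Psrc1 and Plk4), and none was called in KO or at day 2 by limma. Over all tested genes 7.26% rose in WT, 4.20% rose in KO and 5.23% were lower in KO at day 2. A single call in lists of this size lies near these shares. List medians in WT were 1.30 for mitotic drivers, 0.25 for other kinetochore genes, 0.05 for cohesin and condensin II and 0.63 for other spindle genes, beside 1.08 for the 53.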

How the data were processed

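RNA of mouse liver was measured on 12 Affymetrix arrays of 1 colour. Per the submitters' processing notes, the authors deposited intensities computed with MAS5 (its version is not given in the sources used here); the mean between the 2nd and 98th percentiles of each array is 499.8 to 500.0. They were used as log2 of the value plus 16, with no other normalization. Probe sets were named through the platform annotation: of 45101, 64 are controls, 9160 name no gene, 932 several and 34945 exactly 1. Only those naming 1 gene were used, and all 53 members matched current symbols. Each gene was represented by its brightest probe set above the array median on at least 2 of 12 arrays, which left 14102 of 18193 genes. limma 3.58.1 in R 4.3.3 fitted 6 group means to the 12 arrays (eBayes with trend and robust). The fit was tested on simulated data. Python 3.11.15 with matplotlib 3.10.9, numpy 2.4.6 and pandas 2.3.3 made the tables, motif searches and figures. The members, lists and tests were chosen with earlier results of these data known. Values on every array are given for up to 3 members per role class with the largest called change in WT, up to 8 called in each comparison between genotypes, any called against the rest, and Top2a, Mki67, Mad2l1, Birc5 and Aurkb. Probe sets beside the brightest were picked after their values were seen. Same-numbered arrays did not deviate together (correlations between -0.01 and 0.03), so numbers were not used to pair arrays. Alternatives were quantile and cyclic loess normalization, median centring, 1 or 64 added before log2, no filter or a stricter one (at least 6 arrays), averaged probe sets, plain eBayes, a fit of only the arrays compared, the replicate number as a block, each array left out, and every probe set tested.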

Additional observations from a re-analysis of the deposited data

Results flagged for a closer look

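For 4 genes the change from day 0 to day 2 differed between KO and WT by a test of the difference itself, limma's contrast of the 2 changes. The difference was -2.99 for Smc2, -1.39 for Smc4, -1.30 for Top2a and -0.91 for Bub3 on the log2 scale (adjusted p = 0.0292, 0.0188, 0.0442 and 0.0463). For Smc2, KO minus WT at day 0 was 1.59 ± 0.48 (adjusted p = 0.352). Smc2 and Top2a passed the filter on dim probe sets only through treated arrays. All 4 calls were lost without some 1 array, and all 4 in some other setting. By other probe sets past the filter the difference was 0.04 and 1.32 for Bub3 and 0.25 for Smc2. It was -1.00 and -1.30 for Smc4 and -2.23 for Top2a.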

How the results depend on the processing

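Across the settings tried, 15 of the 25 rises in WT were called every time, as were 2 of the 14 in KO (Mad2l1 and Ube2c), 8 of the 16 lower genes at day 2 (Cdca8, Ckap2l, Mad2l1, Pbk, Racgap1, Smc4, Top2a and Ube2c) and none of the 4 differences in response. Averaging a gene's probe sets left 8 rises in KO, 10 lower genes at day 2, 1 higher at day 0 (Prc1) and 2 differences in response (Cdca8 and Prc1, not among the 4). The fall of Tpx2 was then 0.81, a rise, and no gene was called lower in WT (0) with averaging, median centring, no filter, plain eBayes or every probe set. With the stricter filter another probe set stands for Ncapd2, and its day 2 difference was 0.27. Only the arrays compared gave 8 rises in KO and 1 gene higher in KO at day 2 (Cenpa), and quantile or loess normalization gave 1 (Tpx2). Testing every probe set gave 1 higher at day 0 (Prc1). The differences in response numbered 2 with quantile normalization or no filter and 1 with plain eBayes. With the replicate block 0 genes were lower in WT and 2 differed in response, and the numbers do not pair the arrays. Median changes were 1.23 (loess) and 0.88 (64 added) in WT, -0.77 (centring) at day 2 and -0.73 (centring) for the difference in response. The stricter filter gave medians of 0.99 in WT and -0.57 at day 2. The cause of these shifts was not tested. Leaving out 1 array gave 0 to 1 falls in WT and 6 (without KO day 0 replicate 1) to 15 rises in KO. It gave 0 to 1 higher at day 2, 0 to 1 higher (Smc2) and 0 to 1 lower (Cdca3) at day 0, 0 to 2 higher (Cdca3 and Tpx2) and 0 to 6 lower differences in response, and medians of the latter from -0.71 to -0.36. Lone day 0 arrays were assumed to vary like the other groups.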
